A study of Mus musculus with 6 samples.

Results

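The collagen genes outside the type IV family were taken as the non-control probes of the array whose gene name is a collagen chain (Col, a number, the letter a and a number), with Col4a1 to Col4a6 left out. They were 38 genes with 82 probes, of 37323 gene names and 56599 probes in all. By the build of their chains, 11 are fibrillar, 9 are FACITs (fibril-associated collagens with interrupted helices), 6 are the beaded type VI chains and 12 are other collagens. RNA of the renal cortex was read on 6 1-colour arrays, 3 from diabetic C3aR-/- mice, which lack the receptor for the complement fragment C3a, and 3 from diabetic WT mice. All were male C57BL/6 mice. Both groups were put on a diet with 60% of calories from fat at 8 weeks of age, were given streptozotocin, which kills beta cells of the pancreas, at 60 mg/kg on 3 days after 4 weeks of that diet, and were killed 26 weeks later. The labels do not name the origin of the C3aR-/- line. Mice without diabetes are not analysed here, and the comparison is between genotypes within diabetes.

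Collagens are proteins of the extracellular matrix whose chains wind into a helix in which glycine recurs at regular steps. In the kidney, the fibrillar types I and III build the fibrils of the interstitium, and their deposition by fibroblasts, pericytes and myofibroblasts is a hallmark of renal scarring. FACITs sit on the surface of such fibrils, type VI forms fine beaded filaments, and types XV and XVIII lie in basement membrane zones.

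Levels are log2 signals relative to the 75th percentile of the array, so 0 is the level of that percentile, and a level belongs to its probe and is not set against that of another probe. Probe positions are those the array files give for mm9, and no annotation of that build was used here. Differences are C3aR-/- minus WT on the log2 scale, errors are limma standard errors, and n is 3 arrays in each group throughout. The labels do not say that replicates were separate animals, so p-values cover the spread between these samples, and the number of arrays limits the precision. In each group, from 58.6% to 63.0% of probes on the C3aR-/- arrays and from 58.8% to 62.8% on the WT arrays were well above background. C3aR-/- replicate 2 and WT replicate 1 stood apart from the other arrays, at opposite ends of the first principal component, which held 43.1% of the variance. C3ar1, the gene of the receptor, had levels of -4.10, -4.95 and -4.69 on the C3aR-/- arrays and -2.96, -3.86 and -3.62 on the WT arrays, a difference of -1.10 ± 0.30 (limma, adjusted p = 0.931). That difference was -0.39 with normexp background correction and -0.66 with array weights. The weights were estimated from how closely these same 6 arrays followed the group fit, not from a separate measure of quality. They were 2.84, 0.51 and 1.28 on C3aR-/- replicates 1, 2 and 3, and 0.32, 1.83 and 0.93 on WT replicates 1, 2 and 3. The groups did not overlap for C3ar1, and its probe was well above background on 2 C3aR-/- arrays and 3 WT arrays. Of the markers of cortex, all 7 of the proximal tubule and all 6 of the podocyte were measured.

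Most measured collagens read lower in C3aR-/- cortex, but none passed the test. Of the 38 genes, 30 were tested, each through a probe that stood well above background on 3 or more arrays: 10 fibrillar, 6 FACIT, 5 beaded and 9 others. No collagen had an adjusted p under 0.05 in limma, with a range of 0.931 to 0.999, and neither did any of the 22741 genes tested (0.0%), whose lowest was 0.858. At an unadjusted p under 0.05 there was 1 collagen, Col27a1, against 1111 of all genes (4.89%). The difference was below 0 for 22 of the 30 collagens (73.3%), beside 43.4% of all genes, and its median was -0.14, beside 0.026 over all genes. The count was 16 without C3aR-/- replicate 2 and also 16 without WT replicate 3, and 11 with arrays weighted by quality. The groups did not overlap for 2 collagens (6.67%), Col27a1 and Col9a2, both higher in C3aR-/-, where 9.84% of all genes had groups without overlap, 5.65% with C3aR-/- higher and 4.19% with C3aR-/- lower. No collagen stood lower on all 3 C3aR-/- arrays than on every WT array. The median standard error was larger for the collagens, at 0.26 over the 30 collagens beside 0.15 over all genes.

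**Figure D1:**
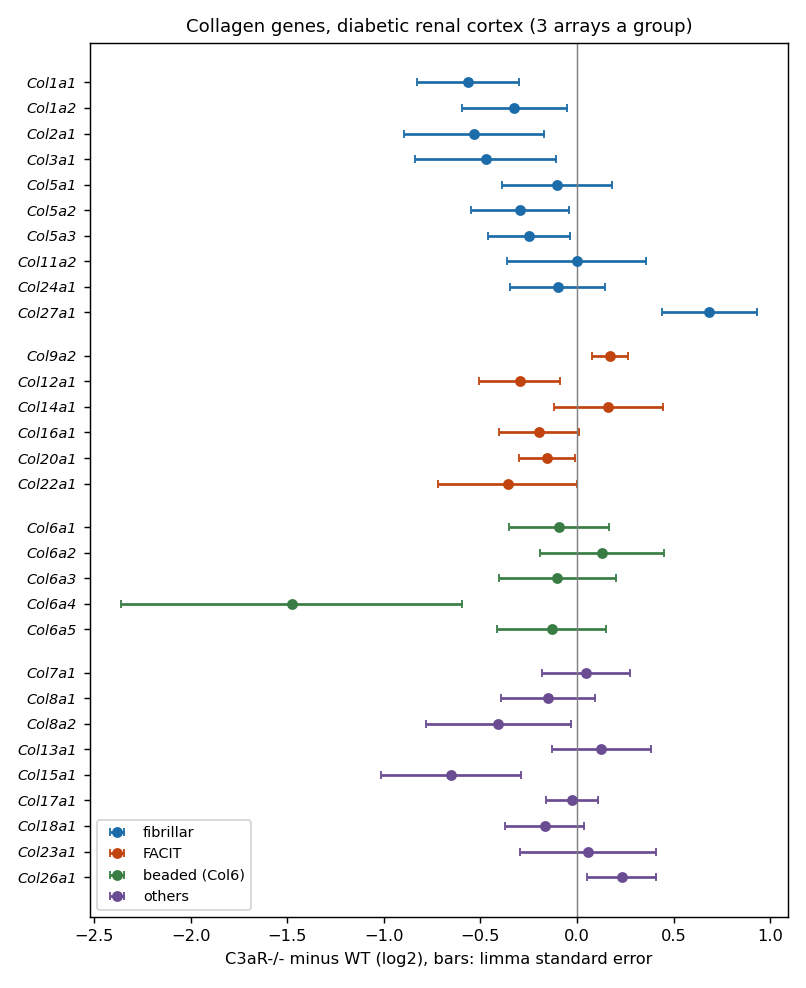
Difference in level of each tested collagen, C3aR-/- minus WT on a log2 scale, with its limma standard error, grouped by family. Most points lie left of 0, and Col27a1, at 0.69, lies farthest to the right.

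The lowest readings were concentrated on 1 C3aR-/- array, and the highest fell most often on WT replicate 3. C3aR-/- replicate 2 was the lowest of the 6 arrays for 19 of the 30 collagens (63.3%), beside 20.8% of all genes: for 8 of 10 fibrillar chains, 5 of 6 FACITs, 4 of 5 beaded chains and 2 of 9 others. Taken about each gene's mean over the 6 arrays, the collagens averaged 0.16, -0.40 and -0.024 on C3aR-/- replicates 1, 2 and 3, and 0.044, -0.0084 and 0.23 on WT replicates 1, 2 and 3. C3aR-/- replicate 1 was thus above all but 1 of the WT arrays. WT replicate 3 was the highest array for 11 collagens and C3aR-/- replicate 1 for 9. Without C3aR-/- replicate 2 the median of the collagens was -0.018, and without WT replicate 3 it was -0.054. C3aR-/- replicate 2 had the lowest 75th percentile, log2 9.08 beside 9.25 to 9.44 on the others. It also had the smallest share of probes well above background, 58.6%. With that array and WT replicate 1 both left out, the count of lower collagens was 12 and the median 0.059. Whether the array or the animal sets this pattern was not tested.

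**Figure D2:**
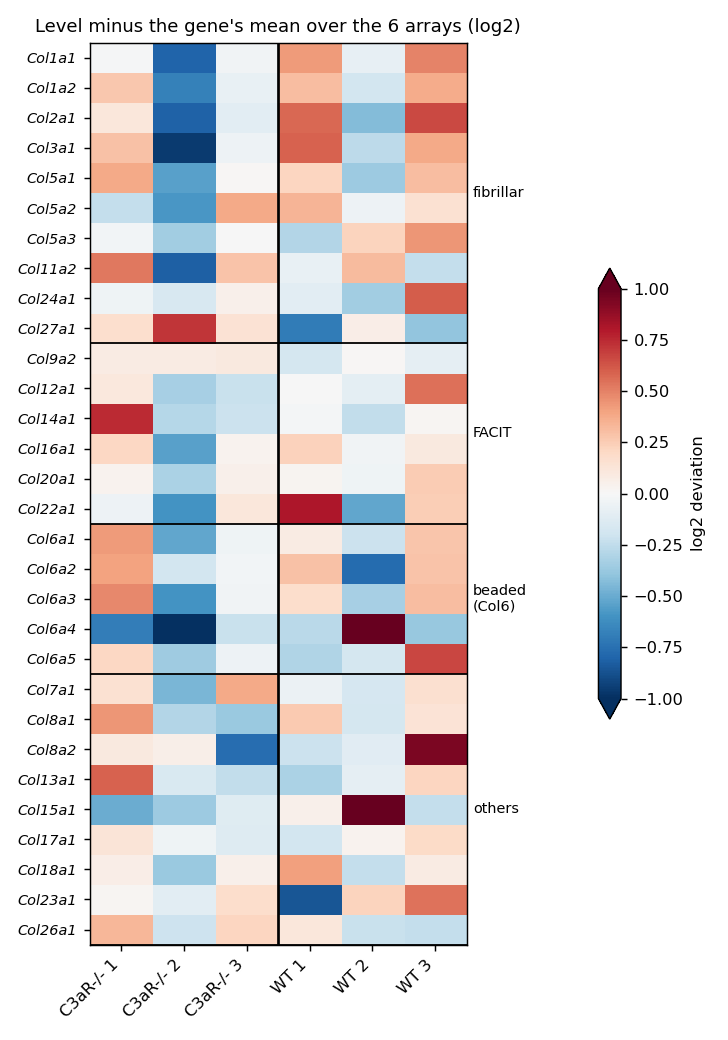
Level of each tested collagen on each array about its own mean over the 6 arrays (log2), with the 3 C3aR-/- arrays left of the 3 WT arrays and genes grouped by family, and with colours capped at 1 on either side. The column of C3aR-/- replicate 2 is the lowest for 19 of the 30 genes.

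Among the fibrillar collagens, the chains of types I and III, which make the bulk of interstitial fibrils, all had negative differences that did not pass the test. Col1a1, the alpha 1 chain of type I (probe at chr11:94813075-94813134, mm9), had levels of 1.91, 1.13 and 1.89 on the C3aR-/- arrays and 2.36, 1.84 and 2.43 on the WT arrays. C3aR-/- replicates 1 and 3 were above the lowest WT array, so the groups overlapped. The difference was -0.56 ± 0.27, a C3aR-/- over WT ratio of 0.677 (95% interval of the log2 difference -1.20 to 0.076, limma adjusted p = 0.931). The other 2 measured probes of Col1a1 gave -0.55 and -0.48. The probe with -0.55, at chr11:94813115-94813174, overlaps the probe used, so it does not read a separate site. Spots of the same probe on 1 array spread by an SD of 0.017 to 0.064, far less than the arrays of a group. Without C3aR-/- replicate 2 the difference was -0.30, and it stayed below 0 under all alternatives tried.

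Col3a1, the chain of type III (chr1:45405589-45405648), had levels of 2.55, 1.30 and 2.21 on the C3aR-/- arrays and 2.84, 2.0 and 2.63 on the WT arrays. C3aR-/- replicate 2 was lowest, and the other C3aR-/- arrays lay within the range of WT. The difference was -0.47 ± 0.37 (95% interval -1.36 to 0.41), and it was -0.11 without that array. Its 2 further probes gave -0.62 and -0.24. Col1a2, the alpha 2 chain of type I (chr6:4490619-4490678), had levels of 4.50, 3.55 and 4.16 on the C3aR-/- arrays and 4.54, 4.04 and 4.60 on the WT arrays, with the same array lowest. Its difference was -0.33 ± 0.27, and -0.067 without that array. With array weights, Col1a2 and Col3a1 stood at 0.037 and 0.040. The other measured Col1a2 probes gave 0.16 and -0.14.

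Col27a1, a fibrillar chain of cartilage and other developing tissues, stood on the other side. Its probe (chr4:62995485-62995544) had levels of -1.04, -0.49 and -1.06 on the C3aR-/- arrays and -1.91, -1.14 and -1.60 on the WT arrays. All 3 C3aR-/- arrays were above all 3 WT arrays. The difference was 0.69 ± 0.25 (unadjusted p = 0.0294 and adjusted p = 0.931 in limma, 95% interval 0.094 to 1.28), and it ran from 0.50 to 0.89 when each array was left out. A second Col27a1 probe gave 0.25 ± 0.24. Here C3aR-/- replicate 2 was the highest array.

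The promoters of Col1a2 and Col3a1, which were low on the same array, and of Col27a1, which was high there, are shown from RefSeq (GRCm38.p6) as the 250 bases before the start on the plus strand. Capitals mark CCAAT or its reverse ATTGG, a box found in many promoters, and CAGAC or its reverse GTCTG, the core bound by Smad factors. The windows are chr6:4505368-4505617 for Col1a2, chr1:45311288-45311537 for Col3a1 and chr4:63215162-63215411 for Col27a1.
Col1a2: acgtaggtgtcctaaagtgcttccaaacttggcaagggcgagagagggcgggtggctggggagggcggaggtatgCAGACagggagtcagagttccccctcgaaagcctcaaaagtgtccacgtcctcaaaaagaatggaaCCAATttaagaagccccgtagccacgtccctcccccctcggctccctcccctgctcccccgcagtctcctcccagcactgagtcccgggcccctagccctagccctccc
Col3a1: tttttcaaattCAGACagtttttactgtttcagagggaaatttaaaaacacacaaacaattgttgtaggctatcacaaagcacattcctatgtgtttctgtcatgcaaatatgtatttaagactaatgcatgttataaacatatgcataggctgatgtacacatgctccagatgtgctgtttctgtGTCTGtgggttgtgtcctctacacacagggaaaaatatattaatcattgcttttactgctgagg
Col27a1: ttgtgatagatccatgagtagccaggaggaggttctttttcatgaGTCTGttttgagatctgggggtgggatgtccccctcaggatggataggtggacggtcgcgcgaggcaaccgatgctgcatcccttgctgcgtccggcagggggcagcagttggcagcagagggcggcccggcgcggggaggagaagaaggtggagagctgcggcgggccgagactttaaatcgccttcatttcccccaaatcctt
Col1a2 held 1 CCAAT, 109 bases before the start, and 1 CAGAC, Col3a1 held 2 CAGAC and no CCAAT, and Col27a1 held 1 CAGAC and no CCAAT. Promoters matched for 30 of the 38 genes, 33 promoters in all. CCAAT was in 10 of these 33 (30.3%), beside 33.8% of 32851 promoters, and CAGAC in 16 (48.5%), beside 42.2%. A match is a description of the letters in the window.

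The other fibrillar chains lay between these. Col2a1, the chain of cartilage fibrils (chr15:97806485-97806544), had levels of -3.86, -4.78 and -4.08 on the C3aR-/- arrays and -3.40, -4.41 and -3.32 on the WT arrays, a difference of -0.53 ± 0.36, and was well above background on 2 C3aR-/- arrays and 3 WT arrays. The type V chains, which are built into type I fibrils, had differences of -0.10 ± 0.28 for Col5a1, -0.30 ± 0.26 for Col5a2 and -0.25 ± 0.21 for Col5a3. Col24a1 stood at -0.10 ± 0.25 and Col11a2, of the minor fibrils of cartilage, at -0.0019 ± 0.36, well above background on 2 C3aR-/- arrays and 3 WT arrays. In all, 9 of 10 fibrillar chains had a negative difference, with a median of -0.27. With normexp background correction these were 7 and -0.088, and with the mean of a gene's probes they were 9 and -0.18. Without C3aR-/- replicate 2 they were 7 and -0.072, and without it and WT replicate 1 they were 4 and 0.013.

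**Figure D3:**
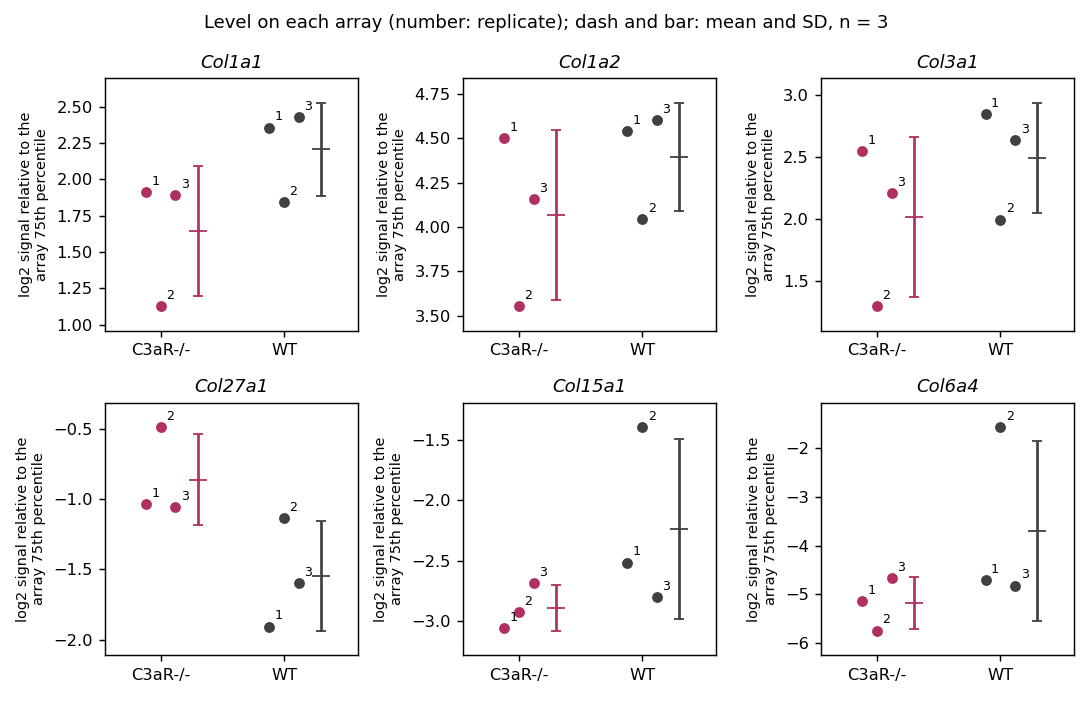
Level of 6 collagens on each array (log2 relative to the 75th percentile), C3aR-/- left of WT, with each point an array numbered by replicate and the dash and bar the mean and SD of 3. The groups overlap for 5 of them and are apart for Col27a1, and single arrays stand off for Col15a1 and Col6a4 (WT replicate 2).

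Of the FACITs, 4 of 6 had a negative difference, with a median of -0.17. Col9a2, a chain of type IX collagen, which coats cartilage fibrils (chr4:120727698-120727757), had levels of -3.72, -3.71 and -3.70 on the C3aR-/- arrays and -3.97, -3.78 and -3.89 on the WT arrays. The groups did not overlap, and the C3aR-/- arrays lay within 0.0078 of each other by SD, beside 0.093 for WT. The difference was small, 0.17 ± 0.095 (unadjusted p = 0.120 in limma). Col12a1, which binds type I fibrils (chr9:79446895-79446954), had levels of -1.47, -1.91 and -1.80 on the C3aR-/- arrays and -1.58, -1.68 and -1.03 on the WT arrays, a difference of -0.30 ± 0.21, with a second probe at -0.26. WT replicate 3 was its highest array, and without it the difference was -0.098. Col20a1 (chr2:180752070-180752129) had levels of -2.40, -2.75 and -2.38 on the C3aR-/- arrays and -2.41, -2.48 and -2.18 on the WT arrays, with overlapping groups and a difference of -0.16 ± 0.15. The rest were Col16a1 at -0.19 ± 0.21, Col14a1, another partner of type I fibrils, at 0.16 ± 0.28, and Col22a1 at -0.36 ± 0.36, whose second probe gave 0.14. The Col22a1 probe used was well above background on 2 arrays of each group. Without C3aR-/- replicate 2 the median of the FACITs was -0.0040, and without C3aR-/- replicate 1 it was -0.28.

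The beaded chains are the subunits of type VI collagen, which forms microfibrils around cells. The 3 main subunits had differences smaller than their errors. Col6a1 had levels of 1.62, 0.67 and 1.14 on the C3aR-/- arrays and 1.27, 0.97 and 1.46 on the WT arrays, a difference of -0.092 ± 0.26, and Col6a3 had -0.10 ± 0.30. Col6a2 (chr10:76058931-76058990) had levels of -2.52, -3.11 and -2.96 on the C3aR-/- arrays and -2.64, -3.70 and -2.64 on the WT arrays, and its difference was 0.13 ± 0.32, with 2 more probes at -0.23 and 0.15. All 3 pairs of groups overlapped. Col6a5, an alternative to the alpha 3 chain (chr9:105759441-105759500), had levels of -3.64, -4.20 and -3.90 on the C3aR-/- arrays and -4.15, -4.02 and -3.18 on the WT arrays, and its difference was -0.13 ± 0.28. Col6a4, another such alternative (chr9:105892911-105892970), had the lowest difference of the tested collagens, -1.48 ± 0.88, from levels of -5.13, -5.74 and -4.67 on the C3aR-/- arrays and -4.71, -1.57 and -4.82 on the WT arrays. The probe was well above background on 2 C3aR-/- arrays and 3 WT arrays. WT replicate 2 alone was high there, and without it the difference was -0.41. A second Col6a4 probe was not well above background on any array and read -7.09 on WT replicate 2. In all, 4 of 5 beaded chains had a negative difference, with a median of -0.10. Only 1 of 5 had one without C3aR-/- replicate 2 or without WT replicate 3, with medians of 0.14 and 0.027. All 5 had one without C3aR-/- replicate 1 or without WT replicate 2, with medians of -0.33 and -0.25.

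Of the 9 other collagens, 5 had a negative difference, with a median of -0.026. That median was on either side of 0 under the alternatives. It was -0.15 with the mean of probes, -0.14 without C3aR-/- replicate 1 and 0.064 without WT replicate 3. It was 0.031 with normexp background correction and 0.090 with array weights. Col18a1, a basement membrane collagen whose end is cut off as endostatin (chr10:76515820-76515879), had levels of 5.63, 5.19 and 5.61 on the C3aR-/- arrays and 5.97, 5.32 and 5.64 on the WT arrays. The groups overlapped, and the difference was -0.17 ± 0.20 (95% interval -0.66 to 0.33). Col15a1, its close relative (chr4:47283786-47283845), had levels of -3.06, -2.93 and -2.69 on the C3aR-/- arrays and -2.52, -1.39 and -2.80 on the WT arrays, a difference of -0.65 ± 0.36. WT replicate 2 was far above the rest, and the difference was -0.23 without it. Col26a1 (chr5:137217629-137217688) had levels of -0.99, -1.53 and -1.11 on the C3aR-/- arrays and -1.21, -1.55 and -1.56 on the WT arrays. Its difference was 0.23 ± 0.18, and its other 2 probes gave 0.17 and 0.14. The probe with 0.17, at chr5:137217650-137217709, overlaps the probe used. Col8a2, of the short-chain type VIII networks of vessels (chr4:125991441-125991500), had levels of -4.75, -4.79 and -5.61 on the C3aR-/- arrays and -5.06, -4.96 and -3.91 on the WT arrays, a difference of -0.41 ± 0.38, and was well above background on only 1 C3aR-/- array and 2 WT arrays. Its partner Col8a1 stood at -0.15 ± 0.24. Col7a1, of the anchoring fibrils, was at 0.047 ± 0.23. The transmembrane collagens were Col13a1 at 0.13 ± 0.26, Col17a1 at -0.026 ± 0.13, whose second probe gave -0.79 ± 0.41, and Col23a1 at 0.056 ± 0.35. The Col23a1 probe was well above background on 2 C3aR-/- arrays and 1 WT array.

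The remaining 8 genes were not tested. No probe of Col10a1, Col11a1, Col6a6 or Col9a3 was well above background on any array. The best probes of Col9a1, Col19a1 and Col25a1 were well above background on 2 C3aR-/- arrays and on 0 WT arrays, and that of Col28a1 on 0 C3aR-/- arrays and 1 WT array. The Col9a1 probe had levels of -1.87, -2.29 and -7.42 on the C3aR-/- arrays and -7.52, -6.54 and -7.55 on the WT arrays, so it was high on C3aR-/- replicates 1 and 2 alone. A second Col9a1 probe was not well above background on any array.

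Genes that make, process, bind and break down collagen were read from lists for each step. None passed the test, and 3 lists had 1 gene each with an unadjusted p under 0.05, namely Colgalt2, Omd and Timp1. These 3 of 77 tested genes (3.90%) were a smaller share than the 4.89% of all genes. Of 14 measured genes of hydroxylation and glycosylation of chains, 8 had a negative difference, with a median of -0.042. Colgalt2, which adds galactose to hydroxylysine, stood at 0.36 ± 0.13 and P3h2, a prolyl 3-hydroxylase, at 0.17 ± 0.12. Folding and export had 5 of 13 negative and a median of 0.068, with Tmem38b, an ion channel of the endoplasmic reticulum, at 0.20 ± 0.099 and Pdia3, a disulfide isomerase, at -0.42 ± 0.23. Propeptide removal had 5 of 8 negative and a median of -0.17, with Bmp1, the procollagen C-proteinase, at -0.25 ± 0.20 and Pcolce2, its enhancer, at -0.28 ± 0.25. Cross-linking had 4 of 6 negative and a median of -0.057, with the lysyl oxidases Loxl4 at -0.57 ± 0.33 and Lox at -0.42 ± 0.24. With 1 array left out in turn, the difference ran from -0.38 to -0.071 for Bmp1, nearest 0 without C3aR-/- replicate 2, and from -0.49 to -0.028 for Pcolce2 and -0.79 to -0.29 for Loxl4, nearest 0 without WT replicate 1. It ran from -0.68 to -0.27 for Lox, nearest 0 without WT replicate 3, and from -0.57 to -0.20 for Pdia3 and 0.11 to 0.26 for P3h2, nearest 0 without C3aR-/- replicate 1.

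Fibril-associated proteoglycans and glycoproteins had 12 of 18 negative, with a median of -0.14. Omd, osteomodulin, stood at 0.50 ± 0.20, and Fbln2, fibulin 2, at -0.41 ± 0.18. Collagen receptors had 5 of 9 negative and a median of -0.042. Lair1, an inhibitory receptor of leukocytes, stood at -0.50 ± 0.27, and Mrc2, which takes up collagen, at -0.40 ± 0.30, or 0.29 as the mean of its probes. Collagen degradation had 8 of 9 negative and a median of -0.28. This list mixes proteases with the inhibitors Timp1, Timp2 and Timp3, at -0.99, -0.057 and 0.13, so its count gives no direction for degradation. Timp1, an inhibitor of metalloproteinases, had levels of 1.18, 0.35 and 1.20 on the C3aR-/- arrays and 2.62, 1.35 and 1.72 on the WT arrays, groups that did not overlap, and a difference of -0.99 ± 0.38. Mmp14, a membrane collagenase, stood at -0.49 ± 0.26. The groups also did not overlap for Fbln2, lower in C3aR-/-, or for Colgalt2 and Tmem38b, higher in C3aR-/-. By list, such genes were 2 of 14 for hydroxylation and glycosylation and 2 of 13 for folding and export. They were 1 of 18 for fibril-associated genes, 1 of 9 for degradation and 0 in the other lists, beside 9.84% of all genes. With array weights the difference for Timp1 was -0.50. With 1 array left out in turn, the difference ran from -1.26 to -0.63 for Timp1 and -0.71 to -0.25 for Lair1, nearest 0 without WT replicate 1. It ran from -0.79 without WT replicate 2 to -0.32 without WT replicate 3 for Mmp14, from -0.68 without C3aR-/- replicate 1 to -0.20 without WT replicate 3 for Mrc2, and from -0.54 without C3aR-/- replicate 2 to -0.22 without C3aR-/- replicate 1 for Fbln2.

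**Figure D4:**
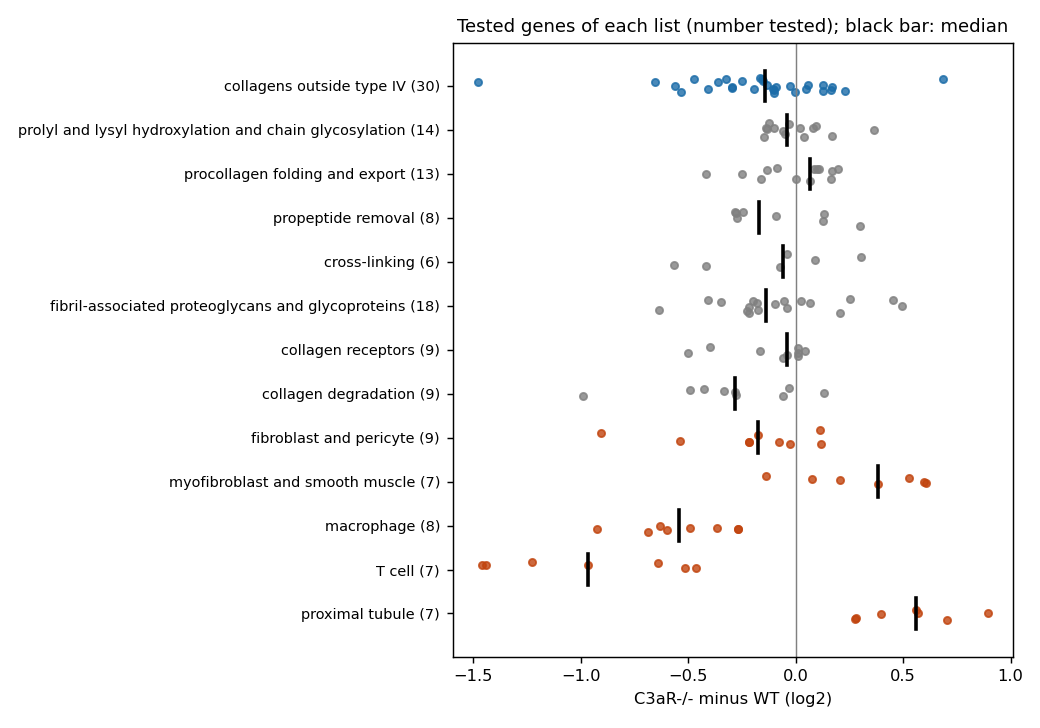
Median difference, C3aR-/- minus WT (log2), of the tested genes in the collagens, the pathway lists and 5 cell type lists, with single genes as points and the black bar the median. The T cell and macrophage lists lie farthest to the left, and the proximal tubule list farthest to the right.

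Markers of the cells that make collagen, and of other cells, were read beside these values. Of 9 measured fibroblast and pericyte markers, 7 had a negative difference, with a median of -0.17, and their summed linear level was 18.3 to 30.9 on the C3aR-/- arrays and 21.3 to 30.8 on the WT arrays, lowest on C3aR-/- replicate 2. Of this list, Dcn, Lum, Dpt and Fbln1 are also among the fibril-associated genes, and Thy1 is also a T cell gene, with a difference of -0.90 ± 0.28. Myofibroblast and smooth muscle markers had 1 of 7 negative and a median of 0.38, with sums of 24.4 to 33.2 and 22.9 to 31.2 in C3aR-/- and WT. Over all genes, 43.4% had a negative difference. All 8 macrophage markers were negative, with a median of -0.54 and sums of 33.7 to 48.1 in C3aR-/- and 52.5 to 78.9 in WT. All 7 T cell markers were negative, with a median of -0.97 and sums of 1.80 to 2.77 in C3aR-/- and 3.69 to 5.94 in WT, and C3aR-/- replicate 2 was lowest for both lists. All 7 proximal tubule markers were positive, with a median of 0.56 and sums of 380.0 to 637 in C3aR-/- and 210.2 to 489 in WT. That sum was highest on C3aR-/- replicate 2 and lowest on WT replicate 1. On the other arrays the groups interleaved, at 436 and 380.0 in C3aR-/- and 489 and 417 in WT. The median was 0.17 for 6 endothelial markers, 0.12 for 6 podocyte markers, 0.18 for 4 collecting duct markers, 0.0051 for 3 thick limb markers and 0.086 for 3 inner medulla markers. Of the cartilage and bone markers, Acan, Matn1 and Ibsp were not well above background on any array, while Sp7, at 0.051 ± 0.089, and Sox9 were so on all 6 arrays. Sox9, a factor of cartilage that kidney epithelium also uses, stood at -0.60 ± 0.10 with groups that did not overlap (limma adjusted p = 0.920). Groups also did not overlap for 5 of 7 T cell, 3 of 8 macrophage, 1 of 9 fibroblast, 1 of 7 myofibroblast and 1 of 4 collecting duct markers. Over all genes that share was 9.84%. An unadjusted p under 0.05 in limma was found for 6 of 7 T cell and 3 of 8 macrophage markers, for Sox9 and for 1 fibroblast marker. That share was 4.89% of all genes. Of the fat markers, Plin1 was not well above background on any array and Fabp4 was so on all 6. Cfd, adipsin, had levels of -4.15, -5.53 and -0.36 on the C3aR-/- arrays and -5.04, -7.07 and -0.44 on the WT arrays. Ucp1 was likewise high on C3aR-/- replicate 3 and WT replicate 3. Fabp4 had levels of 3.87, 3.83 and 3.31 on the C3aR-/- arrays and 3.65, 3.50 and 3.98 on the WT arrays, lowest on C3aR-/- replicate 3. Retn ran only from -5.08 to -4.44 over the 6 arrays, and Adipoq was well above background on 2 arrays. Of the urothelial markers, Upk1b, Upk2 and Upk3a were well above background on 1 array each, and Upk1a, at 0.30 ± 0.19, and Krt5, at -0.018 ± 0.32, on all 6. In bulk cortex, fewer cells of a type and less RNA per cell cannot be told apart, and the part these cell types play in the collagen values was not tested.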

How the data were processed

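Per the labels' protocols, 0.2 µg of RNA was labelled with Cy3, and the arrays were read with Agilent Feature Extraction 10.7.1.1 on an mm9 grid, per the file headers. The 6 arrays shared 1 slide and 1 scan date, with WT replicate 1 and C3aR-/- replicate 3 in row 2. The intensity values used are the deposited processed signals, background-subtracted per the file headers. Scanner flags come from the same deposited files. A table deposited by the authors gives log2 values with a median of 5.73 in each column, and each column tracked its own array's signal with r of at least 0.999. Its centring and scale are those of a quantile normalization, and its tool is not given in the sources.

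Spots of controls and those with outlier flags were dropped, which removed 6 probes, spots of 1 probe were averaged, and log2 of the signal minus each array's 75th percentile was used. No probe was saturated. Probes well above background on at least 3 arrays (34778 of 56599) were kept, and each gene took its brightest probe by mean over the arrays, giving 22741 genes. For 32992 probes the symbol was looked up by accession in RefSeq's GRCm38.p6 table. Groups were compared with limma 3.58.1 in R 4.3.3 with Benjamini-Hochberg adjustment over all genes, after the script was tested on simulated data. Collagens, gene lists and tests were chosen with earlier results of these data known. Values on each array are given for C3ar1, for the 3 collagens with the smallest p in each family and for Col1a1, Col1a2, Col3a1, Col15a1 and Col18a1. Of each pathway list, the 2 members with the smallest p are named. Values of Col6a1, Col9a1 and Timp1 on each array were added after they were seen. So were the single markers named (Thy1, Sox9, Sp7, Cfd, Ucp1, Fabp4, Retn, Adipoq, Upk1a and Krt5, and those not above background). Summed marker levels are sums of signals relative to the 75th percentile. The brightest probes of a list weigh most in them, such as Dcn, Lyz2, and Slc34a1 and Slc22a6, so they are not amounts of a cell type. Alternatives were other scalings and background corrections, filters, probe rules, variance models, array weights, blocks, the authors' table and leaving out arrays. Values within each slide row were added after the data were seen. Figures were drawn with matplotlib 3.10.9.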

Additional observations from a re-analysis of the deposited data

How the results depend on the processing

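No gene and no collagen passed the threshold under any of the 20 alternatives that gave a test. Of the 30 collagens, 8 kept their direction under all 21 alternatives in which they were measured: Col1a1, Col2a1, Col8a2, Col12a1 and Col15a1 below 0, and Col9a2, Col26a1 and Col27a1 above 0. Their size did change: Col2a1 stood at -0.051 with array weights and -0.070 with normexp, and Col8a2 at -0.027 with normexp and -0.041 without WT replicate 3. Leaving out 1 array in turn gave 16 to 26 lower collagens, with 16 without C3aR-/- replicate 2 and without WT replicate 3. The cause of these changes was not tested.

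With array weights, 11 collagens were lower, and Col1a2 stood at 0.037, Col3a1 at 0.040, Col5a1 at 0.28, Col6a1 at 0.23, Col6a3 at 0.30, Col6a5 at 0.0043, Col8a1 at 0.17, Col11a2 at 0.20, Col16a1 at 0.047, Col18a1 at 0.090, Col22a1 at 0.082, Col23a1 at -0.16 and Col24a1 at 0.0058. Without C3aR-/- replicate 2 and WT replicate 1 together, 12 were lower and the FACIT median was 0.11, with Col1a2 at 0.0053, Col3a1 at 0.063, Col5a1 at 0.22, Col5a2 at 0.021, Col6a1 at 0.16, Col6a3 at 0.23, Col8a1 at 0.054, Col11a2 at 0.37, Col16a1 at 0.093, Col18a1 at 0.14, Col22a1 at 0.17, Col23a1 at -0.29, Bmp1 at 0.018 and Pcolce2 at 0.10. Within slide row 1, 23 were lower, with Col7a1 at -0.15, Col8a1 at 0.090 and Col23a1 at -0.43. Within slide row 2, with 1 array in each group and no test, 16 were lower, with Col5a2 at 0.035, Col5a3 at 0.29, Col6a2 at -0.32, Col6a4 at 0.046, Col6a5 at 0.25, Col11a2 at 0.36, Col14a1 at -0.20, Col17a1 at 0.061, Col20a1 at 0.029 and Col24a1 at 0.16. Normexp gave 19 lower collagens with a median of -0.071, and 0.096 for Col11a2, 0.052 for Col17a1 and 0.058 for Col24a1, median scaling 0.00080 for Col11a2, the filter on all 6 arrays 0.14 for Col22a1, and the mean of probes 0.29 for Mrc2.

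Leaving out 1 array in turn gave ranges across 0 for Col5a1 (-0.32 to 0.14), Col6a1 (-0.33 to 0.14), Col6a2 (-0.22 to 0.31), Col6a3 (-0.37 to 0.17), Col6a5 (-0.31 to 0.17), Col7a1 (-0.13 to 0.29), Col11a2 (-0.26 to 0.40), Col13a1 (-0.14 to 0.28), Col14a1 (-0.17 to 0.35), Col16a1 (-0.35 to 0.027), Col17a1 (-0.13 to 0.064), Col23a1 (-0.36 to 0.34) and Col24a1 (-0.30 to 0.18). The replicate numbers are shared between groups, but deviations of same-numbered arrays correlated at 0.13, 0.41 and -0.093, so they were not taken as pairs. With the replicate block, 0 genes passed, 22 collagens were lower, and 4 collagens had an unadjusted p under 0.05, against 1 without it. That count was 3 with array weights and 0 with the mean of probes. The 4.89% of all genes belongs to the main fit, and the share under these settings is not given here. These counts are therefore not read as a result about collagens.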
